A study of Mus musculus with 6 samples.

Results

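14-qA3-2286 and 14-qA3-19970 are 2 mouse piRNA genes named, per the usual scheme, after band A3 of chromosome 14. They are 2 of the 214 piRNA genes that carried reads in 6 small RNA libraries, and they were chosen by their read counts, summed over the same libraries. Their members here are the read sequences whose listed places all lie in these 2 genes. That left 844 distinct sequences with 4862 reads, of 27231 sequences with 59263 reads in all, and as 1 locus the pair ranked 2 of 213 by reads. These counts, the pileups and the rank are given as a description.

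RNA was taken from purified primordial germ cells, the precursors of sperm, of male embryos at stage E13.5. The 3 libraries called IR came from cells treated with ionizing radiation, and the 3 control libraries from cells left untreated. The labels used here name no radiation dose, no time after exposure and no strain, and do not say whether replicates came from separate embryos. The p-values therefore cover the spread among 6 libraries, and that spread may be technical only. The files hold reads of piRNA cluster transcripts only, so markers of germ cells or of other cells could not be examined in them. The control libraries held 10066, 8037 and 10814 such reads and the IR libraries 11280, 11278 and 7788, and a count of 3 reads was between 0.0266% and 0.0385% of a library's cluster reads.

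PIWI-interacting RNAs (piRNAs) are small RNAs of the germ line, somewhat longer than microRNAs, that guide PIWI proteins to transposons and other targets. They are cut from long single-stranded transcripts of piRNA clusters, often begin with U, and in fetal male germ cells take part in transposon silencing. Small RNA libraries also hold pieces of structured RNAs. Box C/D small nucleolar RNAs (snoRNAs) guide the methylation of ribosomal RNA and mostly lie in introns of other genes. U6 is the small nuclear RNA (snRNA) at the catalytic centre of the spliceosome. It is made by RNA polymerase III and ends in a run of U whose length is set by tailing and trimming enzymes.

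Each gene was dominated by reads with the sequence of 1 structured RNA, placed on the strand opposite to the cluster transcript. In 14-qA3-2286, 2142 of 2481 reads (86.3%, exact 95% binomial interval 84.9 to 87.7) formed a pileup of snoRNA reads. In 14-qA3-19970, 2171 of 2378 reads (91.3%, interval 90.1 to 92.4) formed a pileup of reads from the end of U6. All other reads of the pair numbered 549, or 11.3% of its reads. These intervals cover counting error only, since reads without molecular identifiers are not independent molecules.

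The sequences below carry the snoRNA pileup of 14-qA3-2286 and show how little its reads vary: most share a first base and differ in where they end. They are printed as cDNA, with T for U, 5′ to 3′, and capitals mark TGATG.
Read of 20 nt: tgcagaTGATGtgacagaat
Read of 21 nt: tgcagaTGATGtgacagaata
Read of 22 nt: tgcagaTGATGtgacagaatat
Read of 20 nt that begins 1 base later: gcagaTGATGtgacagaata
TGATG, searched as these letters in the read sense, is the core of box C of C/D snoRNAs. It occurred in 20 of the 20 distinct sequences of this pileup. These begin at adjoining bases of 1 stretch, so they are not separate observations. Among the distinct sequences of all files 6.17% held it, which is given as a description and is no test of the pileup. The first 3 of the printed reads numbered 1213, 486 and 311 over the 6 libraries, and the fourth 67. They matched a single annotated transcript, the snoRNA gene Gm23969 on chromosome 2 (26911261 to 26911334, plus strand, mm10), which lies in an intron of the ribosomal protein gene Rpl7a (26910764 to 26913318, plus strand). The 2120 exact matches covered nucleotides 1 to 22 of its 74. No read that matches Gm23969 exactly was listed outside the pair.

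The next sequences are from the U6 pileup of 14-qA3-19970 and show scattered first bases and ends that differ from the annotated ones. They were picked among reads that matched no annotated transcript from end to end, so they are not typical of the pileup, where runs of 5 T were commonest. Capitals mark the T run, or the last base where it is C.
U6 read of 30 nt: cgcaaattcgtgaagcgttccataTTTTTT
U6 read of 29 nt: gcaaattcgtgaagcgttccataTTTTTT
U6 read of 23 nt: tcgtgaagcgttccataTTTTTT
U6 read of 21 nt: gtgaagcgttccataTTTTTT
U6 read of 29 nt that ends in C: cgcaaattcgtgaagcgttccatattttC
U6 read of 25 nt that ends in C: gcaaattcgtgaagcgttccatatC
They numbered 57, 37, 51, 35, 15 and 13 reads over the 6 libraries. The most abundant read of the pileup, of 29 nt with 5 terminal T, had 106 copies. It matched 97 annotated U6 genes on 20 chromosomes, 3 of them on chromosome 14, and in 92 of them it ran from nucleotide 79 to the end of the 107-nt RNA. Reads of such a repeated RNA cannot be assigned to 1 of its genes. Of all exact matches to these genes in the files, 1223 lay in the pair and 58 outside it. Reads of 14-qA3-19970 that matched annotated snRNA genes outside these 97 included 29 that matched more than 1 such gene. Gm25414 had 14 and Gm22995 had 7. Whether these reads lay in the U6 pileup is not given here. In this gene 995 reads matched no annotated transcript exactly, the 6 printed sequences among them, and were counted in the U6 pileup where they began in it.

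The 2 genes shared almost no reads. Sequences placed in 14-qA3-2286 alone gave 438, 368 and 167 reads without and 511, 568 and 429 with irradiation, in 293 distinct sequences. Sequences placed in 14-qA3-19970 alone gave 475, 521 and 366 reads without and 438, 427 and 151 with irradiation, in 548 distinct sequences. Only 3 sequences, each read once, were placed in both genes, 2 in IR replicate 1 and 1 in IR replicate 3. Of the 4862 reads, 4687 had 1 listed place on the cluster transcripts, which does not mean 1 place in the genome.

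Reads that the pair shared with other piRNA genes were more varied and were left out of the counts above. They numbered 203, 127 and 237 without and 293, 343 and 269 with irradiation, 1472 in all in 1328 distinct sequences. Of these, 930 touched 14-qA3-2286 and 645 touched 14-qA3-19970. Reads of this kind are repeated rarely, in contrast to the pileups, where 20 sequences made up 2142 reads and 379 sequences made up 2171.

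**Figure D1:**
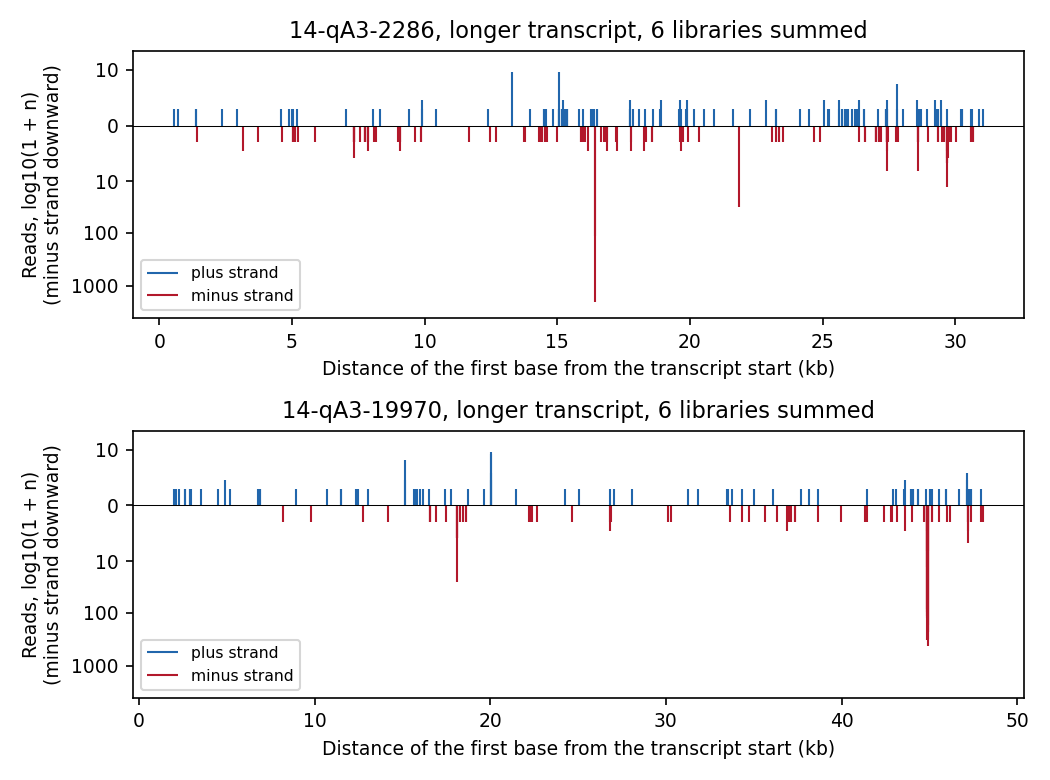
Reads by distance of their first base from the start of the longer transcript of each gene (x axis, kb), with reads of the 6 libraries summed on a log10(1 + n) axis, plus strand upward and minus strand downward. In each gene 1 minus-strand peak stands out, at 16429 and from 44885 to 44899, above other positions that mostly carry few reads.

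Along the longer transcript of 14-qA3-2286, with positions counted from 1, the snoRNA pileup stood at 1 base. Reads that begin at position 16429 on the minus strand numbered 376, 319 and 111 without and 421, 454 and 347 with irradiation. Those that begin 1 base further in, at 16428, numbered 14, 20 and 3 without and 24, 28 and 25 with irradiation. Every other position had 33 reads or fewer. Position 21850 followed with 33 reads of 1 sequence, then 29682 with 13 reads of 13 sequences, and 13278 and 15048 with 9 each.

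In 14-qA3-19970 the U6 reads began at 15 adjoining positions, from 44885 to 44899. The 5 with the most reads were 44897 (423 reads), 44890 (335), 44896 (321), 44893 (236) and 44895 (235). Position 44897, which is nucleotide 79 of U6, gave 52, 108 and 53 reads without and 97, 93 and 20 with irradiation. That was 16.4% ± 4.74 of the control and 22.01% ± 3.59 of the IR reads of the pileup (SD, n = 3; exact two-sided permutation p = 0.2, adjusted over 3 positions 0.45). Nucleotide 80 gave 14.1% ± 4.36 and 14.6% ± 1.13 (exact permutation p = 1.0), and nucleotide 86 gave 16.2% ± 1.66 and 14.9% ± 1.01 (exact permutation p = 0.3).

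The pileups also differed in size. Reads of the Gm23969 pileup had 20 to 24 nt, with 60.3% at 20 nt, the shortest length in the files, and reads of 20 to 22 nt made up nearly all of it. Reads of the U6 pileup spread from 20 to 31 nt with a median of 25, and 59.2% of them fell in the size range of piRNAs, taken as 24 to 32 nt. In the Gm23969 pileup 2 reads did. The first base was T in 94.7% of Gm23969 reads and in 20.3% of U6 reads, against 30.1% in the reads of all other clusters.

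**Figure D2:**
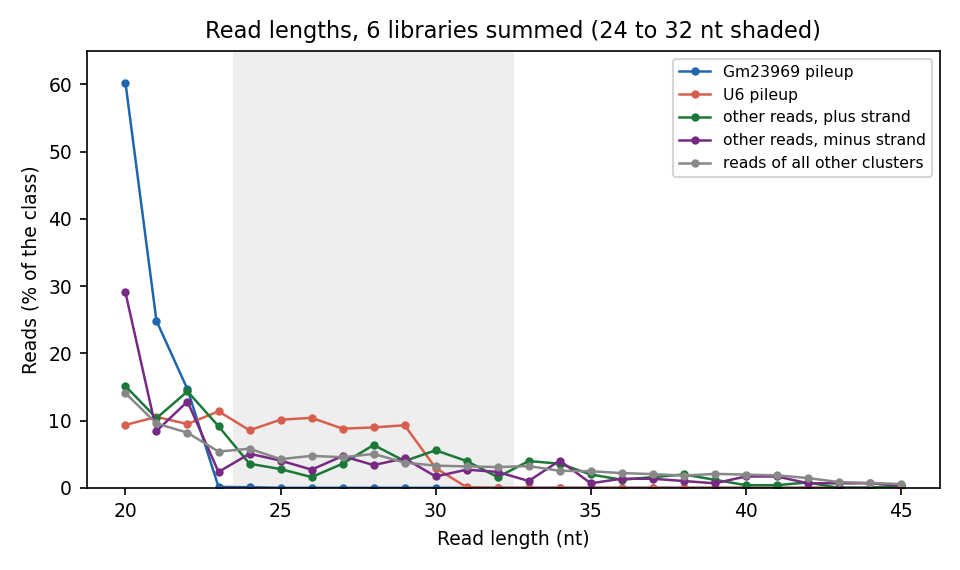
Read length (x axis, nt) against the percentage of reads of each class (y axis), 6 libraries summed, with 24 to 32 nt shaded. The Gm23969 pileup peaks at 20 nt with 60.3%, and the U6 pileup lies between 8.57% and 11.4% at every length from 20 to 29 nt.

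The first comparison asked whether the pair gave more or fewer reads after irradiation. In bulk libraries such as these, fewer cells of a type and less RNA per cell cannot be told apart. The pair took 9.07%, 11.1% and 4.93% of the cluster reads in the control libraries and 8.43%, 8.82% and 7.46% in the IR libraries. The groups overlapped, with control replicate 3 lowest and control replicate 2 highest of all. In CPM, the reads per 1000000 reads assigned to loci, scaled by edgeR's TMM method, the control libraries held 113224 ± 44415 and the IR libraries 100474 ± 8874 (SD, n = 3). The difference, IR minus control, was -0.17 in log2 with an SE of 0.23, and edgeR's quasi-likelihood test gave an adjusted p of 0.710. In this fit 8 of 102 loci passed an adjusted p of 0.05, or 7.84%, and the pair was not among them. Without control replicate 3 the log2 fold change of the pair was -0.45 with adjusted p = 0.0205 (edgeR), and without control replicate 2 it was 0.11.

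Taken apart, the 2 genes pointed in opposite directions, neither past the threshold. 14-qA3-2286 held 56069, 60742 and 20688 CPM without and 57706, 61407 and 68855 CPM with irradiation. Control replicate 3 lay far below the other 5 libraries, which were close together. Its log2 fold change was 0.45 with an SE of 0.31 (edgeR, adjusted p = 0.384), and 0.047 without control replicate 3. 14-qA3-19970 held 60806, 85997 and 45340 CPM without and 49463, 46163 and 24236 CPM with irradiation. Here IR replicate 3 was lowest, and control replicate 3 lay below IR replicates 1 and 2.

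For 14-qA3-19970 the log2 fold change was -0.67 with an SE of 0.28 (edgeR, adjusted p = 0.226). Without control replicate 3 it was -0.92 with adjusted p = 0.000938 (edgeR), and without a filter on low counts -0.77 with adjusted p = 0.00525 (edgeR). In the other 10 alternatives it stayed short of the threshold. Their adjusted p ran from 0.0778 (edgeR, replicate block) to 0.505 (edgeR, without control replicate 2). With the 2 genes as separate loci, 8 of 103 loci passed, or 7.77%.

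**Figure D3:**
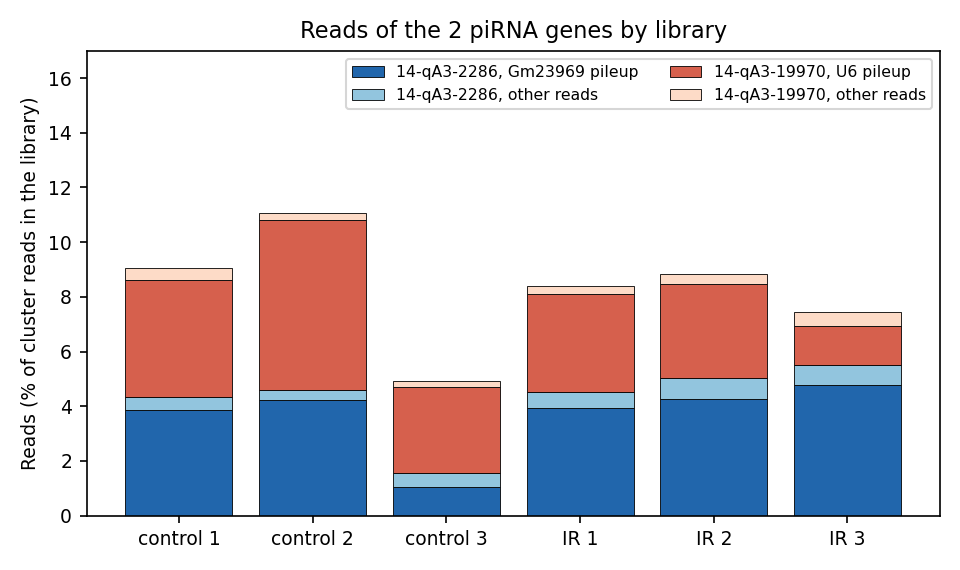
Reads of the 2 genes as a percentage of all cluster reads of a library (y axis) in the 3 control and 3 IR libraries (x axis), with the pileups and the other reads of each gene stacked. The Gm23969 part is 1.05% in control replicate 3 and 3.87% to 4.78% in the other 5 libraries, and the U6 part is 1.44% in IR replicate 3 and 3.14% to 6.25% in the others.

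Most reads behind these values were pileup reads. The split into pileups and other reads was chosen after the data were seen. Gm23969 reads numbered 390, 339 and 114 without and 445, 482 and 372 with irradiation, with a log2 fold change of 0.37 with an SE of 0.37 (edgeR, adjusted p = 0.581). Without control replicate 3 it was -0.034. U6 reads numbered 428, 502 and 340 without and 403, 386 and 112 with irradiation. Their log2 fold change was -0.83 with an SE of 0.33 (edgeR, adjusted p = 0.205), -1.03 with adjusted p = 0.000800 without control replicate 3, and -0.52 with adjusted p = 0.402 without IR replicate 3. In this split 7 of 107 loci passed, or 6.54%.

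The balance between the 2 pileups separated the groups. This ratio was chosen after the data were seen, and its p-value was not adjusted. The number of Gm23969 reads per U6 read was 0.911, 0.675 and 0.335 without and 1.10, 1.25 and 3.32 with irradiation. Every IR library lay above every control library. The gap was narrow between control replicate 1 and IR replicate 1 and wide between control replicate 3 and IR replicate 3. The log2 ratio was -0.76 ± 0.74 in the control and 0.73 ± 0.87 in IR, a difference of 1.49 (SD, n = 3; exact two-sided permutation p = 0.1, the smallest that 3 against 3 libraries can give).

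The same balance appears in measures of the whole pair. 14-qA3-2286 gave 48.0%, 41.4% and 31.3% of the pair's reads without and 53.7%, 57.1% and 73.8% with irradiation. Reads of 24 to 32 nt, mostly U6, made up 31.1%, 34.6% and 43.9% in the control and 29.4%, 27.4% and 14.6% in IR. Reads that match an annotated structured RNA exactly made up 66.6% ± 6.28 in the control and 75.7% ± 3.82 in IR, and the most abundant sequence 19.4% ± 5.99 and 29.9% ± 4.73. In each of these 4 measures the groups did not overlap, for structured RNA only just, with 71.3% in control replicate 2 and 71.4% in IR replicate 2 (exact permutation p = 0.1, adjusted over 10 measures 0.25). Among reads outside the pileups, the difference in the share of 14-qA3-2286 was 4.18 points (exact permutation p = 0.6) in place of 21.3, and that in reads of 24 to 32 nt was 1.76 points in place of -12.7.

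The other 6 measures of the pair did not separate the groups, with adjusted p from 0.5 to 1.0. First T was found in 48.4% ± 8.76 of control reads and 61.2% ± 8.56 of reads with irradiation (exact permutation p = 0.3), and in 11.4% ± 5.08 and 11.5% ± 6.38 of those of 24 to 32 nt (exact permutation p = 1.0). A at position 10, a mark of piRNAs made by the ping-pong cycle of paired cuts, was found in 22.5% ± 4.36 and 23.2% ± 5.41 of reads of that size (exact permutation p = 0.9). Plus-strand reads made up 5.35% ± 2.10 and 5.31% ± 0.951 (exact permutation p = 1.0), and outside the pileups 53.9% ± 9.43 and 40.1% ± 5.83 (exact permutation p = 0.2). There were 30.3 ± 6.88 and 24.8 ± 1.52 distinct sequences per 100 reads (exact permutation p = 0.3), and reads in both genes made up 0 in the control and 0.127% ± 0.112 in IR (exact permutation p = 0.4).

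**Figure D4:**
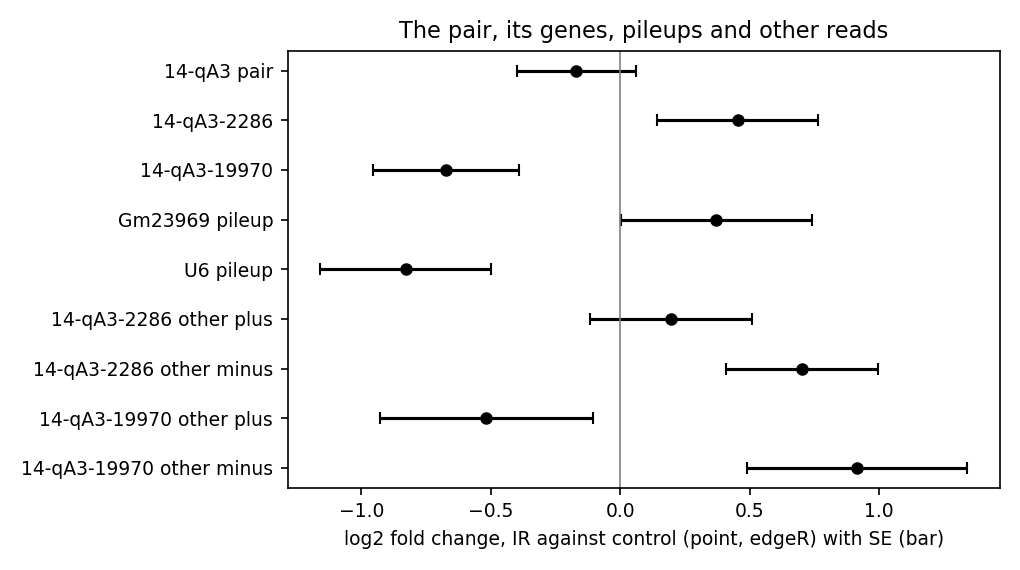
Log2 fold change of IR against control from edgeR (x axis, points) with SE (bars) for the pair, its 2 genes, the 2 pileups and the other reads of each gene and strand (y axis). The 2 pileups lie on opposite sides of 0, at 0.37 and -0.83, and none of the 9 values passed an adjusted p of 0.05.

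Single sequences were tested beside all other sequences of the files. Of 124 sequences tested, 10 passed, or 8.06%, and 13 of the 124 belonged to the pair. None of these 13 passed with edgeR or with DESeq2. The most abundant sequence, of 20 nt, numbered 222, 189 and 68 reads without and 266, 263 and 205 with irradiation (edgeR: log2 difference 0.77 with SE 0.60, adjusted p = 0.494). Control replicate 3 was again the low library.

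The gcagaTGATGtgacagaata form of the snoRNA, which lacks the first base, numbered 3, 11 and 1 reads without and 16, 19 and 17 with irradiation. Every IR library lay above every control library. Its log2 fold change was 1.94 with an SE of 0.64 (edgeR, adjusted p = 0.107). It was past the threshold with the replicate block (edgeR, adjusted p = 0.0128), without control replicate 1 (0.0499) and without control replicate 2 (0.00562). In the other 7 alternatives it stayed short, with adjusted p from 0.0553 (edgeR, without IR replicate 1) to 0.432 (edgeR, without a filter). Among all reads of the pileup, those that begin at nucleotide 2 made up 4.04% ± 1.68 in the control and 5.97% ± 0.679 in IR, with overlapping groups (exact permutation p = 0.3, adjusted over 3 measures 0.45). Reads of 22 nt made up 18.7%, 18.3% and 14.9% of the pileup in the control and 12.1%, 13.49% and 11.6% in IR, without overlap (exact permutation p = 0.1, adjusted 0.30).

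U6 reads were tested in 9 of those 13 sequences, with log2 fold changes from -1.25 to 0.90 and adjusted p from 0.204 to 0.952 (edgeR). The read of 27 nt with 5 terminal T, at the lower end, numbered 12, 9 and 11 without and 6, 5 and 1 with irradiation, without overlap. The read of 26 nt with 2 terminal T, at the upper end, numbered 5, 14 and 5 without and 17, 23 and 3 with irradiation, and IR replicate 3 was the lowest of all.

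The T runs of many U6 reads were longer than the annotated ends. Of 2171 reads of the pileup, 1764 ended at the last A of U6 or in a pure run of T after it. Their mean was 4.34 T. The annotated U6 genes matched above end in at most 5 T, and 474 of these reads (26.9%, interval 24.8 to 29.0) had 6 or more. Runs of 5 T were the commonest with 521 reads, and runs of 6, 7 and 8 T numbered 308, 112 and 54, the last being the longest seen. Runs of 2 T formed a smaller peak of 248 reads, against 17 with 1 T, and 92 reads had 0 T.

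Reads with 6 or more T made up 31.3%, 28.7% and 29.6% of such reads without and 15.1%, 31.0% and 21.5% with irradiation. IR replicate 1, with 49 of 325 reads (exact 95% interval 11.4 to 19.4), lay below the intervals of the 3 control libraries, and IR replicate 2 lay among the controls. The group means were 29.9% ± 1.34 and 22.5% ± 7.99 (SD, n = 3; exact permutation p = 0.3, adjusted over 3 measures 0.3). The mean run was 4.50 ± 0.170 T in the control and 4.18 ± 0.237 in IR (exact permutation p = 0.2), and reads whose last base was C made up 11.2% ± 2.65 and 9.38% ± 1.63 (exact permutation p = 0.3). Since only reads that could be placed on the cluster transcript are listed, runs that the placement did not allow are not counted.

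**Figure D5:**
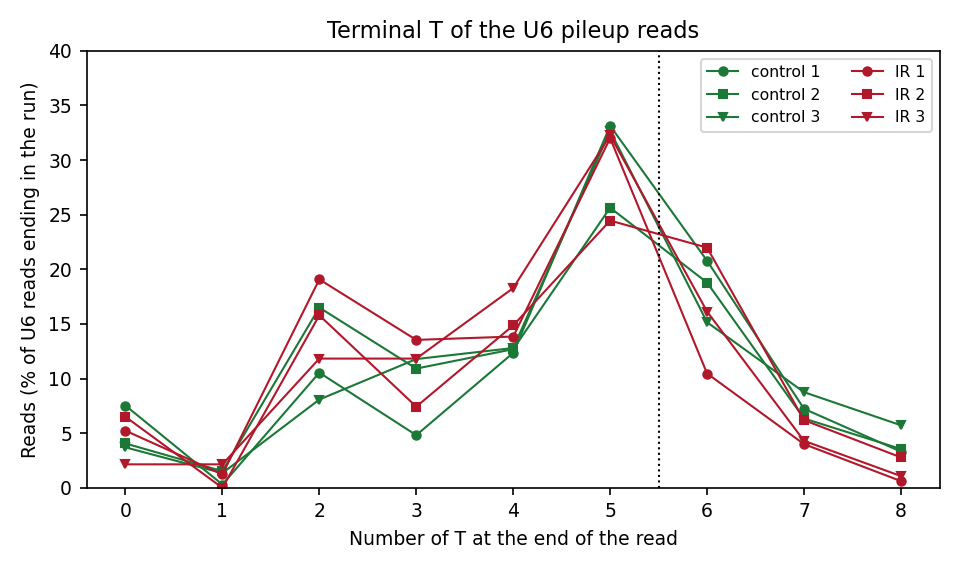
Number of T at the end of the read (x axis) against the percentage of U6 reads (y axis), 1 line per library. Counted are U6 reads that end at the last A of U6 or in a pure run of T after it. A dotted line lies between 5 T, the longest annotated end, and 6 T. Every library peaks at 5 T, and IR replicate 1 has the lowest percentage of reads past the line, 15.1%.

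Outside the pileups, the pair held 445 distinct sequences in 549 reads. These other reads made up 0.944%, 0.597% and 0.731% of the cluster reads without and 0.913%, 1.13% and 1.25% with irradiation. IR replicate 1 lay between the control libraries. As 1 locus without the pileups, the pair had a log2 fold change of 0.37 with an SE of 0.22 (edgeR, adjusted p = 0.289). Split by gene and strand, the log2 fold changes were 0.19 (SE 0.31) and 0.70 (SE 0.29) for plus and minus reads of 14-qA3-2286, and -0.52 (SE 0.41) and 0.91 (SE 0.43) for those of 14-qA3-19970, with adjusted p from 0.228 to 0.757 (edgeR). The last of these was 1.17 without control replicate 3 (adjusted p = 0.0429, edgeR) and 0.44 without IR replicate 3 (adjusted p = 0.575, edgeR), which held 30 of its 99 reads. At position 18101 began 26 of those 99 reads, 11 of them in IR replicate 3. Reads with the sequence of Snord47, a snoRNA named further on, numbered 4, 2 and 3 without and 6, 6 and 12 with irradiation in 14-qA3-19970. No fit of its minus reads was made without them. The minus reads of 14-qA3-2286 numbered 22, 17 and 29 without and 36, 63 and 30 with irradiation. Of these, 22 in IR replicate 2 and 11 in IR replicate 3 were 1 sequence, printed further on. That sequence, absent from the control libraries, is also among the reads of the locus without the pileups. No fit was made without it.

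The strands of 14-qA3-2286 differed in base composition among these other reads. Plus-strand reads began with T in 66 of 142 cases (46.5%, exact 95% interval 38.1 to 55.0), and minus-strand reads in 27 of 197 (13.7%, interval 9.23 to 19.3). The plus strand was higher in 6 of 6 libraries, at 48.0% ± 14.3 against 14.5% ± 10.2 (SD, n = 6; exact two-sided sign-flip permutation p = 0.03125, the smallest possible, adjusted over 4 tests 0.0625). Summed over all positions, T made up 39.4% of the bases of plus-strand and 21.5% of minus-strand reads. A at position 10 went the other way, at 21.1% of plus-strand and 48.7% of minus-strand reads, and was higher on the minus strand in 6 of 6 libraries (exact permutation p = 0.03125, adjusted 0.0625). A made up 21.4% and 36.8% of all bases. A single sequence with A at position 10, read 33 times in IR replicates 2 and 3 only and printed further on, was among these minus-strand reads. Without it, A stood at position 10 in 38.4% of minus-strand reads, against 36.3% of all their bases, and with distinct sequences counted once in 39.7% against 35.5%. Over the libraries the minus strand was then at 38.3% ± 13.7 in place of 44.0% ± 21.1, still higher than the plus strand in 6 of 6 libraries (exact permutation p = 0.03125). The part of base content in these values was not tested. These tests were chosen after the data were seen, and libraries gave as few as 12 plus-strand and 17 minus-strand reads.

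In 14-qA3-19970 the strands were closer. First T stood at 50.5% of 107 plus-strand and 54.5% of 99 minus-strand reads, or 49.9% ± 12.2 and 51.0% ± 8.83 over the libraries (SD, n = 6; exact sign-flip permutation p = 0.875, adjusted 0.875). A at position 10 stood at 33.6% and 25.3%, or 32.49% ± 9.73 and 26.8% ± 10.8 over the libraries (exact permutation p = 0.46875, adjusted 0.625). The most abundant minus-strand sequence, read 16 times, begins with T. It has the sequence of the snoRNA Snord47 and is printed further on. Without the most abundant sequence of each strand, first T stood at 49.0% of plus-strand and 45.8% of minus-strand reads. With distinct sequences counted once it stood at 48.0% and 41.2%. The order of the strands thus turned, and these later values were not tested. The difference between the 2 genes was not tested. Reads of opposite strands outside the pileups that overlap by 10 nt at their first bases, the spacing left by the ping-pong cycle, were found at 3 pairs of positions in 14-qA3-2286 and at 0 in 14-qA3-19970. Overlaps of 19 nt, the most frequent among 1 to 20 nt in 14-qA3-2286, were found at 5 pairs, and no excess at 10 nt was detectable at this depth.

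Among the other reads a few sequences were repeated, and 3 of them are shown. The second is 16 of the 26 reads at its position. Capitals mark TGATG.
14-qA3-2286, position 21850, minus strand: atggtgataaacggacgata
14-qA3-19970, position 18101, minus strand: TGATGTGATGattctgccaaat
14-qA3-2286, position 13278, plus strand: aactgtttgcagaggaaactga
The first of these had 0 reads in each control library and 0, 22 and 11 in the IR libraries, and matched no annotated transcript. It was in 2 of 3 IR libraries. Its rate over the pooled IR group was about 10.5-fold the rate that 3 reads in the whole control group would give. That value rests on a floor set here and carries no spread between libraries. It did not pass the filter on low counts and was not among the 13 tested. Without a filter its adjusted p was 0.000120 and with the replicate block 0.00641 (edgeR). Those fits called 15 of 27231 and 21 of 169 sequences of all files. The sequence is named because it passed in them, so these p-values are no separate support for a difference.

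The second has the sequence of Snord47, a box C/D snoRNA of the Gas5 host gene on chromosome 1 (161038082 to 161038158, plus strand, overlapping an annotated Gas5 exon). Snord47 reads of the pair numbered 4, 2 and 3 without and 6, 6 and 12 with irradiation, and covered nucleotides 7 to 29 of its 77. The groups did not overlap, on 33 reads, and this was not tested. The third matches the microRNA gene Mir452 in an intron of Gabre on chromosome X (72262224 to 72262308, minus strand). It was read 0, 1 and 0 times in control libraries and 4, 0 and 3 times in IR libraries. Reads that match Mir466 genes numbered 14 in 14-qA3-19970. At position 15048 of 14-qA3-2286 lay reads 1 base away from mature let-7g-5p, a microRNA of the let-7 family, with G2C (6 reads) or T13A (3 reads). Positions are counted from 1 at the first base of the microRNA, with its base given first.

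Plus-strand reads of piRNA size outside the pileups were few. Of them, 49 of 83 reads of 24 to 32 nt began with T (59.0%), and 22 of these 49 came from control replicate 1. Minus-strand reads of that size began with T in 21 of 92 cases (22.8%), and those of all other clusters, both strands together, in 33.5%. The examples were picked for a first T, which is in capitals.
14-qA3-2286, positions 25605 to 25632: Tgtgaagaattggaattaggtcgtcttt
14-qA3-2286, positions 16372 to 16401: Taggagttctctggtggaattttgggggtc
14-qA3-19970, positions 43621 to 43647: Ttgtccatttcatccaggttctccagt
14-qA3-19970, positions 25077 to 25105: Taaggaccagtcatatatgcttcagactc
They were read 2, 1, 2 and 1 times over the 6 libraries, and none matched an annotated transcript.

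Other loci were set beside the pair by name and by likeness. Of 4 other loci named after chromosome 14 bands, 1 was tested, 14-qA3-284, with 21, 17 and 31 reads without and 44, 42 and 25 with irradiation (edgeR: log2 difference 0.47 with SE 0.27, adjusted p = 0.267). Of 98 other loci named after bands, 49 were tested, and 1 was higher and 3 lower in IR, against 4 higher and 4 lower (7.84%) of all 102 loci. The median log2 fold change was 0.0097 against -0.026 over all loci. The loci whose log2 CPM varied most like that of the pair over the 6 libraries were 17-qE1.1-7037, pi-Nr2c2 and 1-qE2.3-2, with Pearson's r of 0.86, 0.83 and 0.82. These are descriptions over 6 libraries that share their total. The first 2 of those loci gave 10 to 24 reads in each library.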

How the data were processed

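Small RNA of 18 to 50 nt was sequenced in 3 control and 3 IR libraries, per the labels' protocols. The deposited values are read counts: the copies of each sequence in a library, and a count of its places, with 1 line per place. The most abundant U6 read has 1 such place, though it matches annotated U6 genes on 20 chromosomes. So 1 listed place is a place on the cluster transcripts and does not mean 1 place in the genome. Per the submitters' processing notes the build was mm10. Aligner, trimming and allowed mismatches: not given in the sources used here. Positions are on cluster transcripts, counted here from 1. The piRNA genes, lists and tests were chosen with earlier results of these data known.

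Copies entered once per sequence and library. Other loci held sequences whose places all lay in 1 piRNA gene. The fits used edgeR 4.0.16 in R 4.3.3 with limma 3.58.1, on the counts as deposited, with TMM, filterByExpr, the quasi-likelihood test, Benjamini-Hochberg adjustment over all features and a threshold of 0.05. The SE was taken as the absolute log2 difference over the square root of the F statistic. DESeq2 1.42.0 was an alternative. Libraries of a group differed beyond sampling noise in the counts of loci (chi-square test), so none was taken for 1 library deposited under 2 names. That test does not show that they came from separate samples. Tested on simulated data for 102 loci, the fit found 54% of genes set to change 2-fold and 94% of those set to 4-fold, and 3.27% of its calls were false. On 124 sequences these were 25.8%, 80.8% and 3.76%. Every simulated feature had the common dispersion of its fit, 0.0409 for the loci. These rates therefore need not hold for features that vary more between libraries.

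For shares, an exact two-sided permutation test ran over all 20 regroupings. Sources were found as full-length sense matches without mismatch in GENCODE vM21 transcripts (mm10). A pileup is all reads whose first base lies within 15 nt of the gene's most abundant minus-strand first base. Nuclear tRNA was not matched. A match does not show where a read was made. Named were the 10 most abundant sequences of the pair and those past the threshold in an alternative with 6 libraries, the 5 leading positions per gene, sources with at least 5 reads of the pair, and the 3 loci most alike. Pileups, T runs, strand comparisons, let-7g variants, the examples of piRNA size, U6 reads beyond the 10 and the first and last bases of pileup reads were chosen after their values were seen. Python 3.11.15 with pandas 2.3.3 and matplotlib 3.10.9 was used.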

Additional observations from a re-analysis of the deposited data

How the results depend on the processing

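The replicate numbers were not taken to pair the libraries. Deviations of same-numbered libraries correlated at -0.16, 0.099 and 0.12, not all over 0.1, and control replicate 1 correlated best with IR replicate 2. With 3 libraries per group, these values cannot exclude a pairing. No label says that a number marks a shared animal or day. With the replicate number as a block the log2 fold change of the pair was -0.12, and the sequences of the pair past the threshold numbered 2 in place of 0, of 17 tested, while those of all files numbered 21 in place of 10, of 169 tested. For the pair that number was 1 without a filter and 0 to 2 when 1 library was left out, with 4 to 21 over all files. On reads of 24 to 32 nt edgeR called 0 of 48 sequences of all files, 6 of them of the pair.

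The log2 fold change of the pair was -0.17 and turned to 0.011 on reads with 1 listed place and 0.37 without the 2 pileups. Leaving out 1 library gave -0.45 (without control replicate 3) to 0.11 (without control replicate 2). For 14-qA3-19970 it was -0.77 without a filter, with -0.92 to -0.42 when 1 library was left out, and for the U6 pileup -0.87 without a filter and -1.03 to -0.50. For the Gm23969 pileup, leaving out 1 library gave -0.034 to 0.71, and for plus-strand other reads of 14-qA3-19970 -0.84 to 0.042. 14-qA3-2286 stayed short of the threshold, with the same sign, in its 12 alternatives.

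Among sequences whose log2 fold change lay near 0, signs turned. With the file total as library size the 22-nt snoRNA read was at -0.043, the U6 read of 25 nt with 2 terminal T at -0.17 and that of 30 nt with 6 terminal T at -0.20. These U6 reads were at -0.0100 and -0.031 with DESeq2 and at -0.017 and -0.045 without a filter, and the latter at -0.019 on reads of 24 to 32 nt. Leaving out 1 library gave -0.33 to 0.58, -0.45 to 0.67 and -0.29 to 0.51 for these 3 reads, and -0.46 to 0.040 for the U6 read of 29 nt with 5 terminal T.

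Of the composition measures (IR minus control, percentage points), plus strand, at -0.042, turned to 3.08 with distinct sequences counted once, 2.30 on reads of 24 to 32 nt and 1.02 without the most abundant sequence. Without the pileups, a setting chosen after the data were seen, reads of 24 to 32 nt were at 1.76, first T at -9.97, first T of 24 to 32 nt at -8.53 and plus strand at -13.8. Structured RNA was at -2.39 with distinct sequences counted once and -0.49 on reads of 24 to 32 nt, where distinct sequences per 100 reads were at 13.1. Leaving out 1 library gave -1.26 to 0.57 for plus strand, -3.58 to 2.34 for first T and -2.45 to 2.64 for A at position 10, both of 24 to 32 nt. The share of 14-qA3-2286 kept its sign in its 10 alternatives. The causes were not tested. No exact test of 3 against 3 libraries can fall below 0.1.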
